A study of Homo sapiens with 6 samples.

Results

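The constitutive proteasome subunits are taken here as 38 genes of the 58735 in the deposited expression table, found by matching a fixed list of gene symbols to the table's Ensembl gene IDs through GENCODE release 29. They comprise 14 genes of the core particle (PSMA1 to PSMA7 and PSMB1 to PSMB7), 21 genes listed with the regulatory particle (PSMC1 to PSMC6, PSMD1 to PSMD14 and ADRM1), and a group of 3 made up of the activators PSME3 and PSME4 and the inhibitor PSMF1. The rule that picks the members uses gene names and no measured value, and each of the 38 symbols had 1 row in the table. The study sequenced RNA of HOK-16B cells, an oral keratinocyte line immortalized with papillomavirus DNA, in 6 paired-end libraries: 3 labelled as treated with cannabidiol (CBD) and 3 labelled as treated with vehicle excipient. The series text describes both groups as stimulated to inflammation after pretreatment, so the controls carry the stimulus too. The labels used here give no stimulus, dose, time or genotype for either group. A free-text label numbers the line differently from sample to sample, while the cell line label reads HOK-16B for all 6. Whether the replicates came from separate cultures is not in the labels, so p-values here reflect only the spread between libraries, which may be technical.

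Depth was similar in all libraries, at 18213784 to 22158614 counted fragments. All 9 oral keratinocyte markers examined had a mean of at least 1 FPKM (fragments per kilobase of exon, scaled to library size and so corrected for gene length), and their summed level was 9807 to 11638 FPKM with vehicle and 12135 to 12721 FPKM with CBD. Of 6 fibroblast markers only COL1A1 had a mean of at least 1 FPKM, and the summed list was 6.94 to 7.70 FPKM with vehicle and 8.94 to 8.99 FPKM with CBD. CD14 was the single 1 of 4 immune markers at that level (list sum 2.13 to 3.05 with vehicle and 2.18 to 3.15 with CBD, CD3E at 0) and PMEL the single 1 of 3 melanocyte markers (1.02 to 1.52 and 1.41 to 1.60, TYR at 0), while the 3 endothelial markers summed to at most 0.108 FPKM. The immune marker CD68 has 97.6% of its coding bases in exons of other genes, so its low level is uncertain. On the first principal component over all tested genes, which held 47.7% of the variance, vehicle replicate 1 lay at -25.1 and the other vehicle libraries at 0.739 and -9.36, against 10.3 to 12.7 for CBD. Counted fragments came from transcripts with a mean GC content of 48.9%, 49.7% and 49.3% for the vehicle libraries and 50.1% for all 3 CBD libraries. The part of these library differences in the results was not tested. Values with a GC trend removed or without vehicle replicate 1 are given with several of the results they bear on. In RNA from a whole culture, fewer cells of a type and less RNA per cell cannot be told apart.

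The proteasome is the main machine that degrades ubiquitin-tagged proteins. Its barrel-shaped core is built from outer rings of alpha subunits (PSMA genes), which gate the entrance, and inner rings of beta subunits (PSMB genes), of which PSMB5, PSMB6 and PSMB7 carry the proteolytic sites. The regulatory particle caps the barrel: its ATPase ring (PSMC genes) unfolds substrates, and its other subunits bind ubiquitin chains and remove them. When proteasome activity is short, the transcription factor NRF1 (gene NFE2L1) raises the subunit genes together through antioxidant response elements in their promoters. In keratinocytes and other cells exposed to interferon, the inducible subunits PSMB8, PSMB9 and PSMB10 can replace the catalytic subunits.

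Promoter sequences are shown because the subunit genes are known for joint control. RefSeq windows of 250 bases before a transcription start (GRCh38.p14) were found for 33 of the 38 members, 41 windows in all, and PSMA7, PSMB1, PSMB6, PSMB7 and PSMD4 had no entry. Of 12 motifs searched on both strands, each counted apart, the antioxidant response element core TGACNNNGC was in 10 of 41 member windows (24.4%) and in 10.9% of all 35116 windows. The match can overlap TGAGTCA read on the other strand, which PSMC5 and PSMD9 also held. In PSMD9 the TGACNNNGC matches, written TGACCCAGC and GCCGGGTCA along the gene, do not overlap it. The 9 members with a TGACNNNGC match were ADRM1, PSMA4, PSMB3, PSMC5, PSMD3, PSMD5, PSMD9, PSMD12 and PSME4. The ETS-type core CGGAAG was in 24 of 41 member windows (58.5%), in 21 members, and in 16.5% of all windows. For GGGCGG the shares were 63.4% and 42.6%, and for CCAAT 43.9% and 32.0%. The other motifs searched were less frequent and did not all lean toward the members. The most frequent of them was in 12.2% of member windows and in 13.3% of all windows. Several were in 0 of 41 member windows, and in 0.12% to 1.65% of all windows. The rest were in 2.44% to 7.32% of member windows and in 1.03% to 6.35% of all windows, each more frequent in member windows. A match describes letters and is no evidence of binding. The stretches below hold a match outside annotated exons and are written in the direction of the gene, with the match in capitals. The first 3 hold TGACNNNGC, at chr17:67366708-67366768 (minus strand), chr17:38752611-38752671 (plus strand) and chr12:121888662-121888722 (plus strand).
PSMD12: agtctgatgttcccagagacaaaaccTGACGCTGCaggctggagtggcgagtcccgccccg
PSMB3: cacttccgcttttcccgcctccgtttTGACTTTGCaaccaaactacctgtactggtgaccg
PSMD9: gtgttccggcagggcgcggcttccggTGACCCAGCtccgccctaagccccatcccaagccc
The next 3 hold CGGAAG or, in PSMD1, its reverse complement CTTCCG, at chr1:109426567-109426624 (minus strand), chr2:231056736-231056793 (plus strand) and chr14:52707068-52707125 (plus strand).
PSMA5: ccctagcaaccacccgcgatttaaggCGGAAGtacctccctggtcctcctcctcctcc
PSMD1: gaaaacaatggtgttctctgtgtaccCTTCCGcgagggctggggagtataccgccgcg
PSMC6: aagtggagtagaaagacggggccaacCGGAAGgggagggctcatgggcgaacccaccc

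Subunits of 1 particle are present in fixed copy numbers as proteins, but their RNA levels differed widely. The core genes ranged from 0.984 FPKM for PSMA2 to 140 FPKM for PSMA7 as means over the 6 libraries, a 142-fold range, and the regulatory particle genes from 1.46 FPKM for PSMD9 to 112 FPKM for PSMD2, a 76.7-fold range. The alpha subunit genes PSMA1, PSMA2 and PSMA6 and the assembly chaperone gene PSMD9 were 4 of the 5 lowest members. The other was the lid gene PSMD6, which shares no coding bases and, at 4.84 FPKM, lay below PSMA1 at 5.85 FPKM. In the GENCODE 29 annotation more than 50% of the coding bases of PSMA1, PSMA2, PSMA6 and PSMD9 also lie in an exon of another gene: 97.1% in PSMA2, 88.6% in PSMA1, 70.4% in PSMA6 and 58.7% in PSMD9. Their means over the 6 libraries were 0.984 to 5.85 FPKM with a median of 1.42 FPKM. For the 6 members that share above 0% and up to 50% (PSMC1, PSMC5, PSMD7, PSMD11, ADRM1 and PSMF1) the means were 12.8 to 44.9 FPKM, and for the 28 members that share none they were 4.84 to 140 FPKM with a median of 39.7 FPKM.

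Each of the 4 overlaps a protein-coding gene model on its own strand. PSMA1 (chr11:14504874-14643635) shares 814 exonic bases with AC018523.2, PSMA2 (chr7:42916857-42932223) shares 781 with AC010132.3, PSMA6 (chr14:35278633-35317493) shares 919 with AL121594.1, and PSMD9 (chr12:121888731-121918297) shares 1307 with AC069503.2. These partner genes had means of 0.0251, 0.00935, 0.0496 and 0.0455 FPKM. PSMD9 also shares 436 exonic bases with WDR66, a protein-coding gene on the same strand with a mean of 7.13 FPKM. PSMA2 also shares 1043 with the processed pseudogene AC010132.2 on the opposite strand, which was at 0 FPKM. Fragments in such bases cannot be assigned to 1 gene by position alone, and the counting settings are not given in the sources used here, so the levels of PSMA1, PSMA2, PSMA6 and PSMD9 are uncertain and may miss fragments. Across the 38 members, log2 mean FPKM and the percentage of shared coding bases had a Pearson correlation of -0.74 and a Spearman correlation of -0.50. Across the 14 core members the values were -0.89 and -0.71, where only PSMA1, PSMA2 and PSMA6 share any coding bases. Across the 21 regulatory particle members they were weaker, at -0.52 and -0.21. These are descriptions over genes that share libraries and annotation. Level also went with exon length (Pearson -0.64, Spearman -0.75 over 38 members). Exon length is the divisor in FPKM, so a negative correlation with it can be partly built into the measure. How much of that correlation comes from the division was not tested. The part of shared bases in the levels was not tested. Among members with less than 5% of exonic bases shared, the range over the 6-library means was 8.61-fold in the core (16.3 to 140 FPKM) and 10.4-fold in the regulatory particle (10.7 to 112 FPKM).

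**Figure D1:**
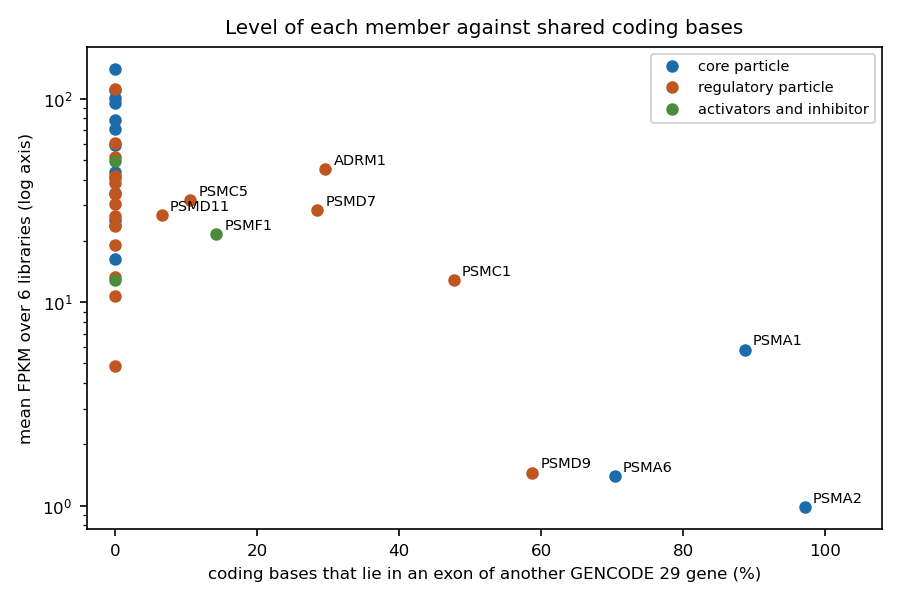
Mean level of each of the 38 members over 6 libraries (FPKM, log axis) against the percentage of its coding bases that lie in an exon of another gene; 1 point is 1 gene, coloured by group. The 4 genes above 50% lie between 0.984 and 5.85 FPKM, and the 28 genes at 0% lie between 4.84 and 140 FPKM.

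Reads could also go to processed pseudogenes, of which the subunit families have many. How reads that match both a gene and its pseudogene were counted is not known here. A pseudogene at 0 therefore does not show that its parent lost no reads. Of 29 annotated pseudogenes of members examined, 20 were at 0 in all 6 libraries and 1 had a mean of at least 1 FPKM. That pseudogene, PSMC1P1 (chr3:68635705-68637024), measured 1.39, 2.42 and 2.51 FPKM in vehicle replicates 1 to 3 and 2.25, 2.26 and 3.08 FPKM in CBD replicates 1 to 3. Its parent PSMC1, an ATPase gene, had 9.36, 14 and 14 FPKM with vehicle and 14.2, 12.8 and 12.5 FPKM with CBD. Vehicle replicate 1 was the lowest library for both the gene and the pseudogene. PSMC1 also shares 75.8% of its exonic bases with NRDE2 on the opposite strand, so its level is uncertain. The fitted PSMC1 difference was 0.09 ± 0.15 (SE) on the log2(FPKM + 1) scale, CBD minus vehicle, and -0.09 without vehicle replicate 1.

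**Figure D2:**
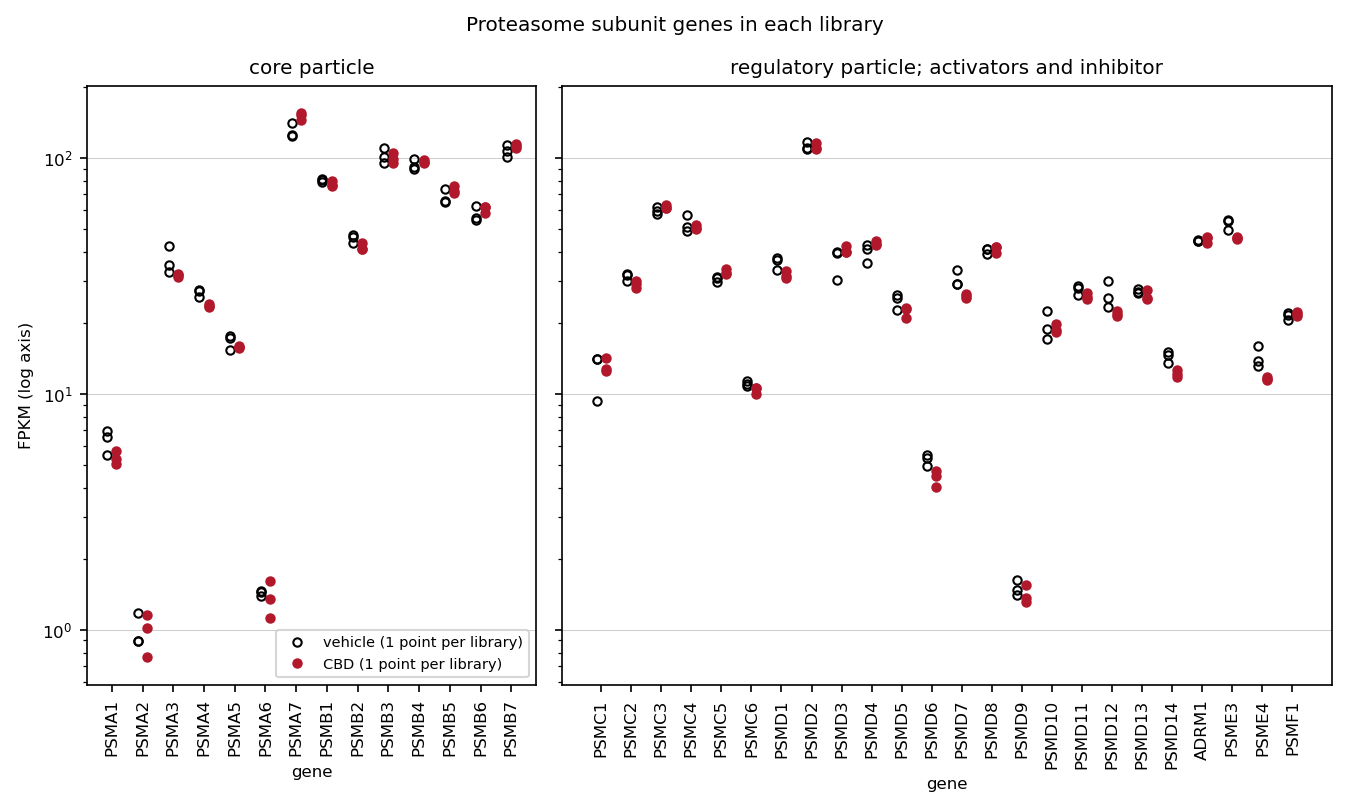
FPKM (log axis) of the 38 members in each library, with core genes on the left and the other members on the right; open circles are the 3 vehicle and filled circles the 3 CBD libraries. The spread between genes, from 0.984 to 140 FPKM as means, is far larger than the spread between groups within a gene.

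The comparison of CBD with vehicle asked whether the subunit genes differed between stimulated cells given CBD and stimulated cells given vehicle. Differences were small: over the 37 tested members (mean of at least 1 FPKM, which left out PSMA2), the fitted log2(FPKM + 1) differences ran from -0.28 to 0.22, or 0.826-fold to 1.17-fold. None of the 37 passed an adjusted p of 0.05 in limma, with Benjamini-Hochberg adjustment over 12517 genes. Of all tested genes 0.256% were called higher and 0.0959% lower. At an unadjusted p under 0.05, 1 member lay higher (PSMA7) and 8 lay lower (PSMA4, PSMD1, PSMD6, PSMD7, PSMD12, PSMD14, PSME3 and PSME4), beside 15.4% higher and 16% lower of all tested genes. The 3 libraries of each group did not overlap in FPKM for 3 members that lay higher and 11 that lay lower with CBD, beside 18.7% and 21.9% of all tested genes. By limma-voom on recovered read counts, 1 member was called higher (PSMA7) and 5 lower (PSMA4, PSMD7, PSMD14, PSME3 and PSME4), where 7.26% and 6.69% of all tested genes were called. For these 6 genes the call thus depends on the model: their adjusted p was 0.0711 to 0.0865 in limma and 0.029 to 0.0467 in limma-voom. The calls also turned on vehicle replicate 2: without it, limma called 1 member higher (PSMA7) and 7 lower (PSMA4, PSMD1, PSMD7, PSMD12, PSMD14, PSME3 and PSME4), beside 10.1% and 8.66% of all tested genes. Weighting each library by its fitted quality gave 5 members higher and 14 lower, beside 21.7% and 22.9% of all tested genes. The lowest bound of any 95% interval was -0.46 (PSMD12) and the highest 0.44 (PSMC1), so differences beyond those bounds lay outside the interval of every tested member.

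**Figure D3:**
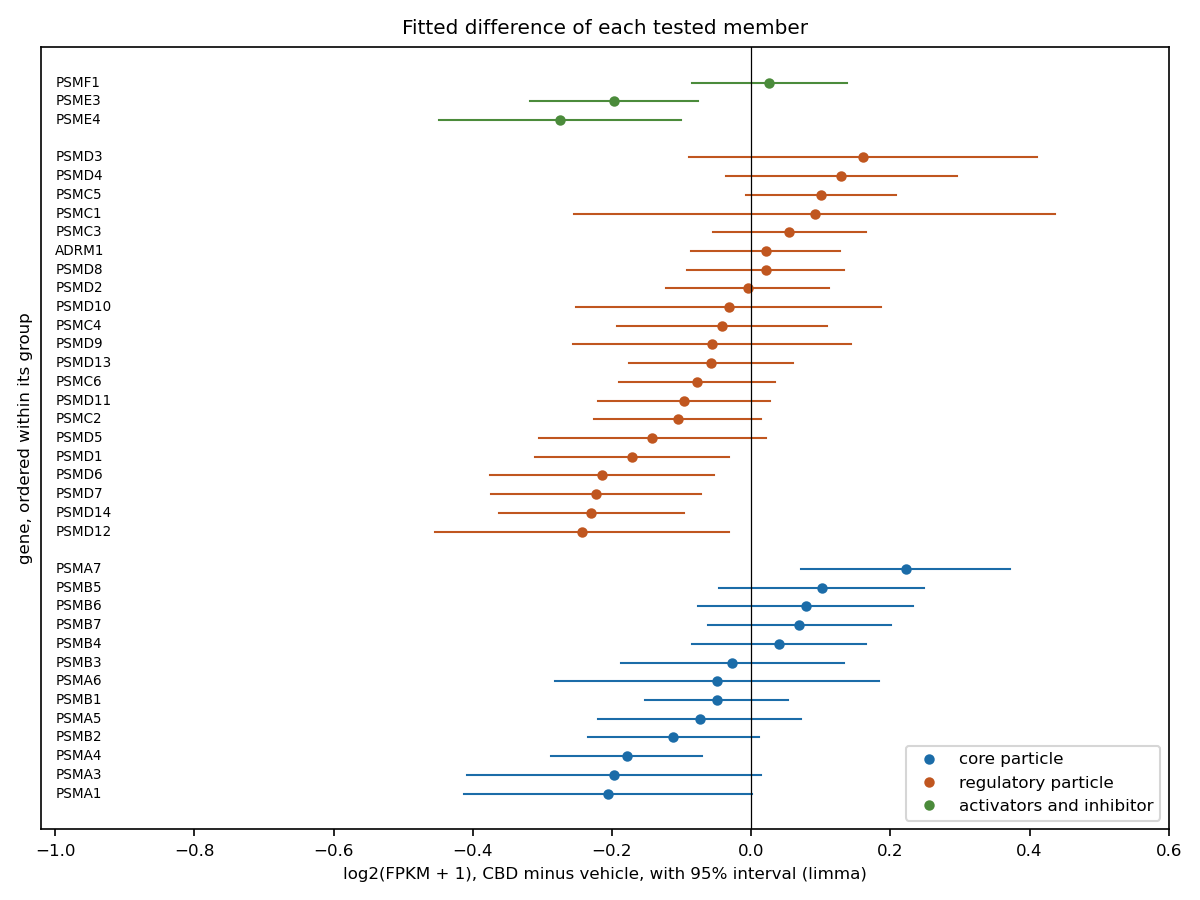
Fitted difference of each of the 37 tested members, CBD minus vehicle on the log2(FPKM + 1) scale, with its 95% interval from limma; 1 row is 1 gene, ordered within the core particle, the regulatory particle, and the activators and inhibitor. Points run from -0.28 (PSME4) to 0.22 (PSMA7), and no gene passed an adjusted p of 0.05.

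In the core particle, 5 of 13 tested genes lay above 0 and 8 below, with a median log2 difference of -0.05 (0.064 with a GC trend removed) where that over all tested genes was -0.01. Core genes took 0.196%, 0.191% and 0.189% of counted fragments with vehicle and 0.193%, 0.192% and 0.190% with CBD, ranges that overlap. The alpha subunit gene PSMA7 (chr20:62136735-62143440), whose product helps form the gated outer ring, was the most abundant member. It measured 123, 140 and 125 FPKM in vehicle replicates 1 to 3 and 155, 153 and 145 FPKM in CBD replicates 1 to 3. Every CBD library lay above every vehicle library. Group means were 129 ± 9.26 and 151 ± 4.96 FPKM (SD, n = 3 each), a log2 difference of 0.22 ± 0.06 (SE) with a limma adjusted p of 0.0855 and an exact two-sided permutation p of 0.1, the smallest that 3 against 3 allows.

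Other alpha subunit genes lay lower. PSMA4 (chr15:78540405-78552419) measured 27.5, 25.8 and 27.3 FPKM with vehicle and 24, 23.5 and 23.3 FPKM with CBD. Its groups did not overlap, and the difference was -0.18 ± 0.05 (limma adjusted p 0.0757). For PSMA3 (chr14:58244831-58272012) the values were 42.1, 32.8 and 35.3 FPKM with vehicle and 31.2, 31.8 and 32.2 FPKM with CBD. Here vehicle replicate 1 stood apart from the rest: the difference was -0.20 ± 0.09 (limma adjusted p 0.18) and -0.10 without that library. PSMA1 measured 6.97, 6.58 and 5.5 FPKM with vehicle and 5.05, 5.28 and 5.74 FPKM with CBD. Its groups overlapped, at -0.21 ± 0.09 (limma adjusted p 0.161), on the uncertain level described above. The lowest member, PSMA2, was not tested, and its 1.18, 0.897 and 0.898 FPKM with vehicle and 0.762, 1.01 and 1.15 FPKM with CBD overlapped (exact two-sided permutation p 0.9). PSMA5 and PSMA6 had differences of -0.07 and -0.05 with limma adjusted p of 0.432 and 0.749.

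The 3 catalytic genes all lay slightly above 0 with overlapping groups. PSMB5 (chr14:23016543-23035230), which encodes the chymotrypsin-like site, measured 65.1, 73.9 and 65.8 FPKM with vehicle and 75.7, 72.7 and 71.2 FPKM with CBD, a difference of 0.10 with a 95% interval of -0.05 to 0.25. PSMB6 (chr17:4796144-4798503), the caspase-like site, measured 62.7, 55.4 and 54.6 FPKM and 61.6, 62.2 and 58.3 FPKM, a difference of 0.08 with an interval of -0.08 to 0.23. PSMB7 (chr9:124353466-124415444), the trypsin-like site, measured 101, 114 and 107 FPKM and 111, 114 and 113 FPKM, a difference of 0.07 with an interval of -0.06 to 0.20. None passed (limma adjusted p 0.295, 0.431 and 0.412), and these intervals hold for this fit alone. With a GC trend removed the differences of PSMB5, PSMB6 and PSMB7 were 0.070, 0.0043 and 0.069. Weighting each library by its fitted quality called PSMB5 and PSMB6 higher, beside 21.7% of all tested genes. The non-catalytic beta genes PSMB1, PSMB2, PSMB3 and PSMB4 had differences of -0.05, -0.11, -0.03 and 0.04.

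In the regulatory particle, 7 of 21 tested genes lay above 0 and 14 below, with a median of -0.06. Its genes took 0.313%, 0.305% and 0.312% of fragments with vehicle and 0.307%, 0.297% and 0.302% with CBD. The groups overlap in that share. PSMD14 (chr2:161308038-161411717), the metalloprotease that cuts ubiquitin chains off substrates, had the smallest adjusted p of the members. It measured 15.1, 13.5 and 14.6 FPKM with vehicle and 12.6, 11.7 and 12.1 FPKM with CBD, all CBD libraries below all vehicle libraries. Group means were 14.4 ± 0.792 and 12.1 ± 0.416 FPKM (SD, n = 3 each), a log2 difference of -0.23 ± 0.06 with a limma adjusted p of 0.0711.

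PSMD7 (chr16:74296775-74306288), the partner that holds PSMD14 in the particle, gave a similar picture. Its level was 33.4, 29.1 and 29.2 FPKM with vehicle and 26.4, 25.5 and 26.1 FPKM with CBD, a difference of -0.22 ± 0.06 (limma adjusted p 0.0865) without overlap. Vehicle replicate 1 was the highest library for PSMD7, and the difference was -0.16 without that library. PSMD7 shares 30.7% of its exonic bases with AC009120.2 on the opposite strand. PSMD12 (chr17:67337916-67366627), a scaffold subunit of the lid, measured 30.1, 23.3 and 25.4 FPKM with vehicle and 22.5, 21.7 and 21.5 FPKM with CBD. The groups did not overlap, and vehicle replicate 1 was the highest library. The difference was -0.24 ± 0.09 (limma adjusted p 0.124), and -0.15 without vehicle replicate 1. PSMD1, the large scaffold of the base, and the lid gene PSMD6 had differences of -0.17 and -0.21 without overlap (limma adjusted p 0.111 and 0.0989), and of -0.09 and -0.07 with a GC trend removed.

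Among the ubiquitin receptors no shared direction was seen. PSMD4 (chr1:151254703-151267479) measured 35.7, 41.0 and 42.6 FPKM with vehicle and 44.4, 43.2 and 42.9 FPKM with CBD, a difference of 0.13 ± 0.07 (limma adjusted p 0.244). Its groups did not overlap, with vehicle replicate 1 lowest, and the difference was 0.06 without that library. ADRM1 (chr20:62302093-62308862) measured 44.4, 44.8 and 44.6 FPKM with vehicle and 46.4, 43.5 and 45.9 FPKM with CBD, overlapping, at 0.02 ± 0.05. PSMD2 (chr3:184298709-184309054), the most abundant of the regulatory particle genes, measured 116, 109 and 110 FPKM and 115, 110 and 109 FPKM, a difference of -0.01 with an interval of -0.12 to 0.11. Its groups overlapped.

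The largest positive differences in the regulatory particle were PSMD3, PSMD4 and PSMC5. PSMD3 (chr17:39980797-39997960), a lid scaffold, measured 30.3, 39.4 and 40.0 FPKM with vehicle and 42.2, 39.8 and 40.0 FPKM with CBD. Vehicle replicate 1 was the one low library. The difference was 0.16 ± 0.11 (limma adjusted p 0.323), and 0.03 without it. The ATPase gene PSMC5 (chr17:63827152-63832026) measured 29.8, 31.2 and 30.8 FPKM with vehicle and 33.9, 32.6 and 32.2 FPKM with CBD, without overlap, at 0.10 ± 0.05 (limma adjusted p 0.179). It shares 19.5% of its exonic bases with FTSJ3 on the opposite strand. The remaining ATPase genes PSMC2, PSMC3, PSMC4 and PSMC6 had differences of -0.11, 0.05, -0.04 and -0.08, and PSMD8, PSMD11 and PSMD13 had 0.02, -0.10 and -0.06.

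PSMD5, PSMD9 and PSMD10 encode chaperones that guide the assembly of the base and leave the finished particle. PSMD5 (chr9:120815496-120842984) measured 26.3, 22.8 and 25.4 FPKM with vehicle and 21, 23.2 and 22.9 FPKM with CBD, a difference of -0.14 ± 0.07 (limma adjusted p 0.203), and -0.02 with a GC trend removed. PSMD9 measured 1.63, 1.40 and 1.48 FPKM and 1.55, 1.31 and 1.36 FPKM, at -0.06 ± 0.08. PSMD10 (chrX:108084207-108091618) measured 22.4, 17.1 and 18.9 FPKM and 18.7, 18.3 and 19.7 FPKM, at -0.03 ± 0.09 and 0.07 without vehicle replicate 1. The groups overlapped for all 3 chaperones, and none passed the test.

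The 2 activators lay lower and the inhibitor did not. PSME4 (chr2:53864067-53970840), which encodes the PA200 activator linked to acetylated histones and DNA repair, had the most negative difference of all members. It measured 16.0, 13.1 and 13.7 FPKM with vehicle and 11.5, 11.4 and 11.8 FPKM with CBD, without overlap: 14.3 ± 1.49 and 11.6 ± 0.213 FPKM (SD, n = 3 each), a difference of -0.28 ± 0.07 with a limma adjusted p of 0.0787. Vehicle replicate 1 was its highest library, and the difference was -0.20 without that library. PSME3 (chr17:42824385-42843758), the nuclear activator PA28 gamma, measured 54.0, 49.7 and 54.5 FPKM with vehicle and 46.4, 45.4 and 45.7 FPKM with CBD. It too had no overlap, at -0.20 ± 0.05 (limma adjusted p 0.0762). PSMF1 (chr20:1113263-1189415), which binds the core ends and blocks activators, measured 20.6, 22.0 and 21.7 FPKM and 22.2, 21.8 and 21.4 FPKM, overlapping, with a difference of 0.03 and an interval of -0.08 to 0.14.

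The differences of the members went with the GC content of their transcripts. All 15 tested members under 45% GC lay below 0, with a median of -0.14, where all 4784 tested genes of that range had a median of -0.13. Of the 10 members at 45% to under 50%, 5 lay above 0 and 5 below, and of the 12 at 50% or more, 8 lay above 0 and 4 below, with medians of -0.02 and 0.04 beside -0.04 and 0.12 for all tested genes. Across the 37 members the difference and GC content had a Pearson correlation of 0.66 and a Spearman correlation of 0.68, a description over genes measured in the same libraries. Over all 12510 tested genes with a GC value these were 0.60 and 0.66. Whether GC content plays a part in the members' differences was not tested beyond removing the trend.

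With a smooth GC trend removed from each library, 16 members lay above 0 and 21 below, and the core median moved from -0.05 to 0.064 while the regulatory particle median stayed near its value, at -0.05. The difference was smaller in size for 23 of the 37 members. PSMD14, with 32% GC, had -0.05 in place of -0.23, PSMA4 had -0.07 in place of -0.18, PSMD12 had -0.09 in place of -0.24, and PSMA3 had -0.04 in place of -0.20. The differences of PSMD7, PSME4 and PSMA7 also shrank, to -0.16 from -0.22, to -0.15 from -0.28 and to 0.13 from 0.22. PSME3, with 49.1% GC, stayed near its value, with -0.19 in place of -0.20. ADRM1, with 64.2% the member richest in GC, had -0.21 in place of 0.02. None passed an adjusted p of 0.05 in limma. At an unadjusted p under 0.05, 2 members lay higher (PSMA7 and PSMC5) and 4 lower (ADRM1, PSMD7, PSME3 and PSME4), beside 9.24% higher and 9.87% lower of all tested genes.

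**Figure D4:**
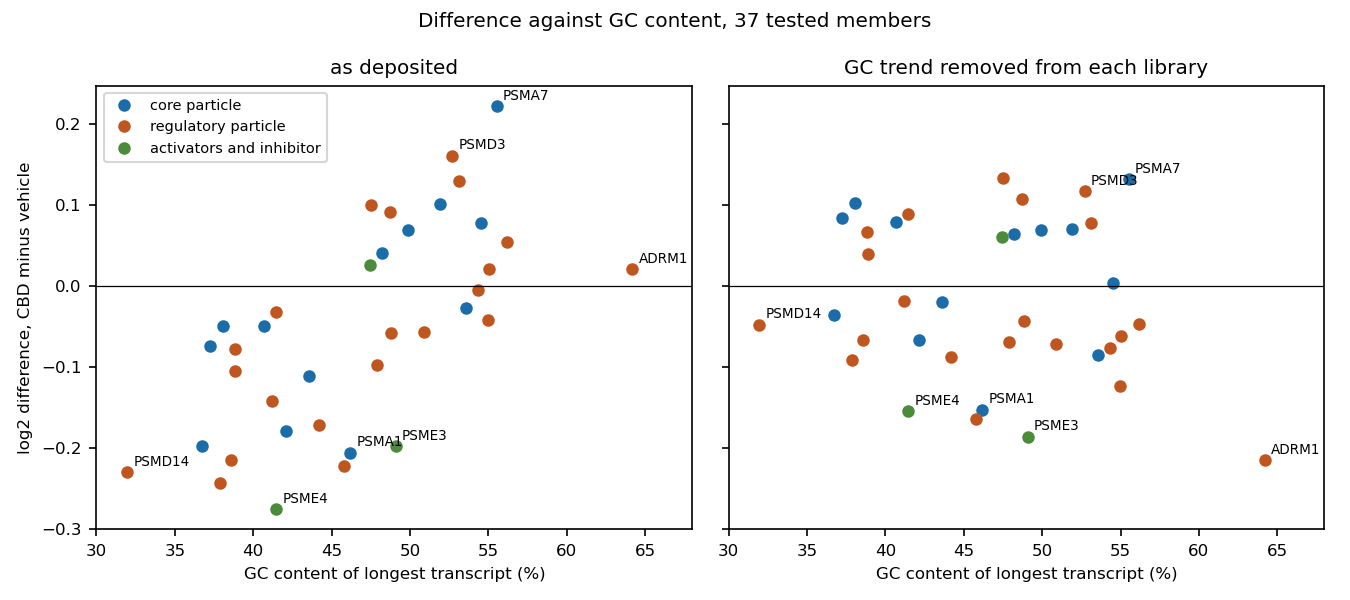
Difference of the 37 tested members on the log2(FPKM + 1) scale, CBD minus vehicle, against the GC content of the longest transcript, as deposited (left) and after a GC trend was taken out of every library (right); 1 point is 1 gene. On the left all 15 genes under 45% GC lie below 0 (Pearson 0.66 over 37 genes), and on the right the correlation is -0.15.

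Other genes of the pathway were examined by list. Of 6 dedicated assembly factors, 2 lay above 0 and 4 below with a median of -0.03, and none passed. PSMG1, a chaperone of alpha ring assembly, had 18.3 ± 2.20 FPKM with vehicle and 15.2 ± 0.497 with CBD, a difference of -0.24 (limma adjusted p 0.109), and PSMG3, another such chaperone, had 15.5 ± 2.01 and 17.4 ± 0.613, at 0.16 (limma adjusted p 0.244). Without vehicle replicate 1 these differences were -0.15 and 0.09, and with a GC trend removed -0.20 and 0.02. Among 7 genes of NRF1 control, 4 lay above 0 and 3 below with a median of 0.09, and none passed. NFE2L1 itself measured 72.3, 94.2 and 89.5 FPKM with vehicle and 96.0, 99.5 and 95.8 FPKM with CBD, without overlap and with vehicle replicate 1 lowest, at 0.19 (limma adjusted p 0.216). Without that library its difference was 0.08, and with a GC trend removed 0.11. MAFK, a small MAF partner of such factors, had 4.15 ± 0.764 and 5.41 ± 0.362 FPKM, at 0.32 (limma adjusted p 0.104), and 0.10 with a GC trend removed.

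Proteasome-bound enzymes and shuttle receptors gave 4 of 12 genes above 0 and 8 below, with a median of -0.06 and none past the threshold in limma. UCHL5, a deubiquitinase bound through ADRM1, had 11.2 ± 0.495 FPKM with vehicle and 9.14 ± 0.487 with CBD, at -0.27 (limma adjusted p 0.0616). USP14, the deubiquitinase bound to PSMD2, had 26.5 ± 2.25 and 21.7 ± 1.39 FPKM, at -0.28 (limma adjusted p 0.0809). With a GC trend removed the differences of UCHL5 and USP14 were -0.10 and -0.13, and without vehicle replicate 1 they were -0.24 and -0.21. With ECPAS, these 3 of 12 were the genes of that list called lower by limma-voom, beside 6.69% of all tested genes. Of 6 genes for ubiquitin and its activating enzymes, 4 lay above 0 and 2 below with a median of 0.03 and none passed in limma. UBA6, an activating enzyme, had 9.53 ± 0.737 and 7.54 ± 0.299 FPKM, at -0.30 (limma adjusted p 0.0621, limma-voom 0.017) and -0.13 with a GC trend removed. The tissue-specific subunits were at or near 0: PSMB11 of the thymus was at 0 in all libraries, and PSMA8 of the testis reached 0.0221 FPKM in CBD replicate 1 alone.

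The inducible subunits PSMB8, PSMB9 and PSMB10 are the closest relatives of the catalytic members. They were examined with the PA28 genes PSME1 and PSME2. Of these 5 genes, 3 lay above 0 and 2 below with a median of 0.10, none passed in limma, and limma-voom called 2 higher, beside 7.26% of all tested genes. PSMB9 measured 20.8, 22.9 and 21.3 FPKM with vehicle and 29, 31.6 and 26.9 FPKM with CBD, without overlap, at 0.41 (limma adjusted p 0.0553, limma-voom 0.0123) and 0.45 with the GC trend removed. PSMB10 measured 5.53, 9.61 and 7.29 FPKM and 10.7, 11.5 and 10.5 FPKM, without overlap, at 0.52 (limma adjusted p 0.0953, limma-voom 0.036). Its difference was 0.36 with the GC trend removed and 0.34 without vehicle replicate 1. PSMB8 had 25.6 ± 2.34 and 27.4 ± 0.808 FPKM, at 0.10. Both PSMB9 and PSMB10 share exonic bases with another gene on the same strand (PSMB8-AS1 and AC040162.1). In PSMB10 the shared part is 58.3% of coding bases, so its level is uncertain in the same way as that of PSMA1.

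Set against the constitutive subunit that each inducible subunit replaces, levels within a library differed by pair. These ratios were chosen after the values were seen and carry no test. PSMB9 over PSMB6 was 0.331, 0.414 and 0.390 with vehicle and 0.470, 0.509 and 0.460 with CBD, and PSMB10 over PSMB7 was 0.0547, 0.0846 and 0.0681 and 0.0965, 0.101 and 0.0936. In both pairs every CBD library lay above every vehicle library. PSMB8 over PSMB5 was 0.435, 0.336 and 0.362 with vehicle and 0.360, 0.390 and 0.375 with CBD, which overlapped. For PSMB8 and PSMB9 the constitutive partner was the more abundant gene in every library. The ratio of PSMB10 to PSMB7 rests on the uncertain level of PSMB10.

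**Figure D5:**
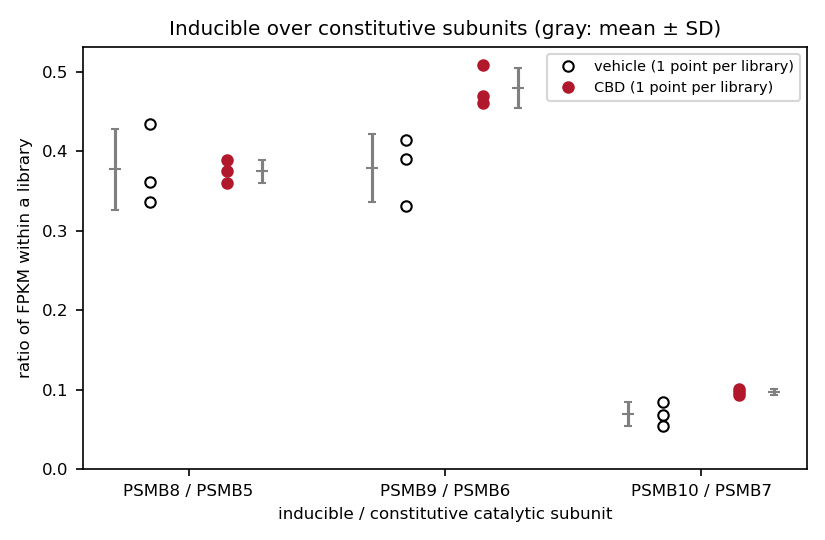
Ratio of the FPKM of each inducible catalytic subunit to that of the constitutive subunit it replaces, in each library; open circles are vehicle, filled circles CBD, and gray marks the mean and SD of 3 libraries. PSMB9 over PSMB6 is 0.331 to 0.414 with vehicle and 0.460 to 0.509 with CBD, and PSMB8 over PSMB5 overlaps.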

How the data were processed

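The deposited table gives FPKM for 58735 genes in 6 libraries, and all 6 columns were matched to samples by title. Per the submitters' processing notes, HISAT2 2.0.5 and featureCounts 1.5.0-p3 were used. The genome build, annotation and strand setting are not given in the sources used here. All gene IDs were found in GENCODE release 29, whose GRCh38 coordinates and exon lengths were used. Multiplying the deposited FPKM by exon length gave whole reads for 100% of values (tolerance 0.01 read), with 18213784 to 22158614 fragments per library. Members had 150 to 15003 reads per library among the 37 tested. With the counted fragments as library size, a count of 3 reads in a gene of 1 kb corresponds to 0.135 to 0.165 FPKM. This covers counting error only. The deposited FPKM were scaled to a larger library size, so the same count corresponds to less there.

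Genes with a mean of at least 1 FPKM (12517) were fitted on log2(FPKM + 1) with limma 3.58.1 (R 4.3.3), with an intensity trend, group as the only term, and Benjamini-Hochberg adjustment at 0.05. Fold changes on this scale understate the change of low genes. Exact permutation tests went through every split of the libraries, and correlations used scipy 1.17.1. Alternatives (21 planned, 1 added after seeing the data, which removes the GC trend without vehicle replicate 1) covered the model, pseudocount, filter, scaling, GC trend (loess span 0.3 in each library), replicate block and each library left out. The fit was also run on simulated data, with planted changes larger than any member's difference and with no outlying library. That run does not show how the fit handles differences of the size seen here. The count model limma-voom, run on the recovered reads, called 909 genes higher and 837 lower. The members and lists were chosen with earlier results of these data known. Values in every library are given for the 3 largest positive and negative differences and the highest and lowest levels of each particle, the catalytic subunits, PSMD14, the ubiquitin receptors, the assembly chaperones, activators and inhibitor. From each pathway list the 2 genes with the smallest adjusted p are given, except 1 gene that is not reported here.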

Additional observations from a re-analysis of the deposited data

How the results depend on the processing

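Members called under another setting were as follows, against 0 by limma as reported. Library weights called 3 core genes higher and 4 lower, 2 regulatory particle genes higher and 8 lower, and 2 of the activators and inhibitor. limma-voom called 1 core gene higher and 1 lower, 2 regulatory particle genes lower, and 2 activators. Testing protein-coding genes alone called 2 activators and 1 regulatory particle gene lower, and a mean of at least 5 FPKM called 1 regulatory particle gene lower (PSMD14), where 587 of 10675 and 305 of 7275 genes were called lower. With 1 library left out, calls ranged from 0 to 1 for core genes higher, 0 to 1 for core genes lower, 0 to 4 for regulatory particle genes lower and 0 to 2 for the activators. All of those came without vehicle replicate 2 (PSMA7 higher; PSMA4, PSMD1, PSMD7, PSMD12, PSMD14, PSME3 and PSME4 lower). The core median was 0.064 with the GC trend removed, with or without the replicate block, and 0.046 when vehicle replicate 1 was left out too. The regulatory particle median was -0.027 under that last setting, and -0.089 to -0.033 with 1 library left out. Same-numbered libraries did not deviate together (correlations of -0.00, 0.05 and 0.02), not every library correlated best with its own number, and the replicate block called 0 members, with a smallest adjusted p of 0.0992, and took the calls over all genes from 32 higher and 12 lower to 0 and 0. Signs turned as follows. With the GC trend removed the values were ADRM1 -0.21, PSMA5 0.085, PSMA6 0.10, PSMB1 0.079, PSMC2 0.039, PSMC3 -0.047, PSMC6 0.067, PSMD8 -0.061 and PSMD10 0.088, and the same with the block added. Without vehicle replicate 1 as well they were ADRM1 -0.16, PSMA3 0.016, PSMA5 0.073, PSMA6 0.058, PSMB1 0.046, PSMC1 -0.070, PSMC2 0.012, PSMC3 -0.020, PSMC6 0.018, PSMD8 -0.027, PSMD10 0.15 and PSMG3 -0.016. Quantile normalization gave ADRM1 -0.00562, PSMB4 -0.014 and PSMC3 -0.019. Library weights gave PSMC1 -0.066 and PSMD2 0.017, and median-ratio scaling PSMD2 0.010. With 1 library left out the ranges were -0.12 to 0.025 for PSMA6, -0.074 to 0.030 for PSMB3, -0.087 to 0.18 for PSMC1, -0.089 to 0.021 for PSMC4, -0.12 to 0.067 for PSMD10, -0.030 to 0.024 for PSMD2, -0.000229 to 0.048 for PSMD8 and -0.000934 to 0.045 for PSMF1. The cause was not tested for any of these changes. Of the single-gene values recomputed, 918 kept direction and side of the threshold, 65 passed it and 47 turned sign.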
